A study of Mus musculus with 23 samples.

Results

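Genes of calcium signalling in the mouse egg are described here across germ cell development in culture and in the animal: Itpr1, Itpr2, Itpr3, Camk2g, Trpm7, Cacna1h, Atp2a2, Stim1 and Orai1. They were chosen by name, and all 9 were found among the 22784 gene symbols of the expression table. At fertilisation the sperm brings a phospholipase, PLCZ1, that makes IP3, and IP3 opens receptor channels in the endoplasmic reticulum of the egg. The calcium set free rises and falls in repeated waves, which the kinase CaMKII gamma reads to end the meiotic arrest, while the pump SERCA2 refills the store and channels of the plasma membrane bring in calcium from outside. A secondary follicle oocyte is still growing, and an MII oocyte is the mature egg, halted in the second meiotic division until a sperm enters.

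Libraries of poly(A) RNA came from 23 samples, split over 7 groups of 3 and 1 group of 2. The culture route, on a C57BL/6 X 129 background, started from female ES cells kept in 2i+LIF, a medium of kinase inhibitors and a cytokine that holds cells in the naive state. Its next stages were primordial germ cell-like cells (PGCLCs), made from epiblast-like cells (EpiLCs) over 6 days and purified by flow cytometry, and PGCLCs kept 3 days in reaggregates with somatic cells of female E12.5 gonads. Secondary follicle oocytes came from reaggregates after 21 days, with the oestrogen receptor blocker ICI182780 at 500 nM from day 7 to day 10. Cultured MII oocytes came from those follicles after collagenase, 11 days with FSH, BMP15 and GDF9, 16 h of maturation with FSH, EGF and hCG, and removal of cumulus cells with hyaluronidase. The animal groups, all B6D2F1, were E12.5 primordial germ cells (PGCs) and secondary follicle oocytes of 8 d.p.p. ovaries, both sorted through the BVSC reporter transgenes, and MII oocytes of females aged 8 weeks. Strain and route therefore cannot be told apart in any comparison of culture with animal. Sorting by transgene, pooling of 337 to 812 follicle oocytes or 99 to 134 MII oocytes per sample, and the mixed origin of the reaggregates also limit the groups as models of each other.

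The deposited values are FPKM, by name fragments scaled to transcript length and to the mapped total. How the libraries were in fact scaled cannot be told from the values. There is 1 value for each gene and group. No sample values, replicate spread, test or p-value can therefore be given, the read depth is unknown, and the order of groups with close values is not read as a difference. Differences are given as log2 of (FPKM + 1) in one group minus the same in the other, and a gene is called higher or lower where that is at least 1 in size, which is 2-fold on this scale and understates the change of genes with low values. Calls were counted over the 14242 genes with at least 1 FPKM in 1 or more groups, and all 9 calcium genes passed this minimum. Itpr2 and Cacna1h passed it through the 4 oocyte groups alone, so their difference between oocytes and earlier cells was bound to be large. In RNA from pools of cells, fewer cells of a type and less RNA per cell cannot be told apart.

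The sum of FPKM over all genes was 268720 to 349772 in 6 groups, 616260 in cultured MII oocytes and 975407 in animal MII oocytes. Setting all sums equal moved the median log2 difference of all genes from -0.09 to -0.74 for the animal step from secondary follicle to MII, from -0.08 to -0.50 for the same step in culture, and from 0.01 to 0.23 for cultured against animal MII oocytes. For oocyte growth it moved from -0.09 to -0.38 in culture and -0.34 in the animal, and for PGCLCs after reaggregation against those of day 6 from -0.02 to 0.11. Values at equal sums are therefore given beside many of the MII results of the 9 genes and beside the MII counts of the pathway lists. The labels were checked against marker genes. Germ cell markers summed to 507 to 921 FPKM in both PGCLC groups and E12.5 PGCs against 37.1 FPKM in ES cells, and 5 markers of pluripotent cells to 715 FPKM in ES cells against 83.6 to 286 FPKM in those 3 groups; counts at 1 FPKM did not separate these groups, since 5 of 6 germ cell markers reached it in ES cells and all 5 pluripotency markers in PGCLCs and PGCs. All 9 growing oocyte markers, such as Gdf9 and the zona pellucida genes, were at 1 FPKM or more in the 4 oocyte groups. Their sums were 10009 to 17978 FPKM there against 16.0 to 181 FPKM elsewhere. Gdf9 held most of each MII sum, at 6768 FPKM in cultured and 11132 in animal eggs. Every other marker of the 9 was higher in cultured eggs, from Bmp15 at 1098 against 749 FPKM to Zp1 at 383 against 35.6 and Zp2 at 483 against 37.8. Of 12 granulosa and cumulus cell markers, 3 and 2 reached 1 FPKM in cultured and animal secondary follicle oocytes, with sums of 7.78 and 7.81 FPKM, and 7 and 8 did so in cultured and animal MII oocytes, with sums of 76.5 and 59.8 FPKM. Amh and Foxl2, which define granulosa cells, were under 1 FPKM in both MII groups. Cyp19a1 was at 27.1 and 42.2 FPKM in cultured and animal eggs, and the other 11 markers summed to 49.4 FPKM in cultured against 17.6 in animal eggs. Inha was at 19.3 and 2.55 FPKM, Gja1 at 9.72 and 2.94, and Inhba at 5.89 and 2.25, so all 3 were higher in cultured eggs. Ptx3 and Amh went the other way, Ptx3 at 0.787 in cultured and 1.82 FPKM in animal eggs. Of 8 stroma markers 3 and 2 reached 1 FPKM in cultured and animal eggs, with sums of 94.3 and 67.6 FPKM; Gata4 held most of each, and Vim was at 14.9 and 2.24 FPKM. In PGCLCs after reaggregation 5 of the 12 granulosa markers and 5 of the 8 stroma markers reached 1 FPKM, with sums of 12.7 and 26.1 FPKM. The same counts were 0 and 4 in PGCLCs of day 6, with sums of 1.93 and 44.7 FPKM, and 0 and 1 in E12.5 PGCs, with 2.67 and 28.7 FPKM. The part of such cells in the results below was not tested.

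The IP3 receptors are tetrameric calcium channels of the endoplasmic reticulum, and IP3R1, the product of Itpr1, is known as the form that carries the calcium waves of the mammalian egg. Itpr1 (chr6:108213096-108551109, + strand, GRCm38) stood at 3.73 FPKM in ES cells, 9.96 in PGCLCs of day 6, 7.31 in PGCLCs after reaggregation and 8.81 in E12.5 PGCs. It stood at 19.2 FPKM in cultured and 24.8 in animal secondary follicle oocytes, and at 24.6 in cultured and 64.0 in animal MII oocytes. Every oocyte group was thus above every earlier group, and the animal egg was the highest of the 8. The log2 difference from PGC stage to secondary follicle was 1.28 in culture and 1.39 in the animal. From secondary follicle to MII it was 1.33 in the animal, but -0.11 at equal sums, and 0.34 in culture, or -0.44 at equal sums, so no direction is given for Itpr1 in that last step.

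Itpr2 (chr6:146108299-146502223, - strand) encodes a receptor form with high affinity for IP3 that is abundant in liver and heart muscle. Its FPKM was 0.0134 in ES cells, 0.134 in PGCLCs of day 6, 0.191 in PGCLCs after reaggregation and 0.1 in E12.5 PGCs. In secondary follicle oocytes it was 18.2 FPKM after culture and 10.3 in the animal, and in MII oocytes 37.7 and 39.5 FPKM. Among the 14242 genes ranked from the highest, Itpr2 moved from the top 90.2% in E12.5 PGCs to the top 39.8% in animal secondary follicle oocytes and the top 20.0% in animal MII oocytes. Its log2 difference over oocyte growth was 4.01 in culture and 3.37 in the animal. From secondary follicle to MII it was 1.01 and 1.84, values that shrank to 0.23 and 0.43 at equal sums with the sign kept.

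Itpr3 (chr17:27057304-27122223, + strand) encodes the form most common in epithelia and other non-excitable cells, and it ran the other way. It was at 8.87 FPKM in ES cells, 5.39 in PGCLCs of day 6, 6.07 in PGCLCs after reaggregation and 7.28 in E12.5 PGCs. The oocytes held less, with 2.70 FPKM in cultured and 1.90 in animal secondary follicle oocytes and 1.75 and 1.38 in cultured and animal MII oocytes. All 4 oocyte values lay below all 4 earlier ones. The log2 difference over growth was -1.52 in the animal, past 2-fold, and -0.93 in culture, short of it. From secondary follicle to MII it was -0.43 in culture and -0.28 in the animal. The animal value became -1.06 at equal sums and 0.69 with quantile normalisation, so no direction is given for it.

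Shares within a family do not depend on the scaling of a group. Of the summed FPKM of the 3 receptors, Itpr3 made up 70.3% in ES cells and 45.0% in E12.5 PGCs, but 5.12% in animal secondary follicle oocytes and 1.32% in animal MII oocytes. Itpr2 made up 0.106% in ES cells, 0.618% in E12.5 PGCs, 27.9% in animal secondary follicle oocytes and 37.7% in animal MII oocytes. The receptor mix thus passed from Itpr1 with Itpr3 in germ cell precursors to Itpr1 with Itpr2 in oocytes, on both routes. Culture and animal differed in the balance of the last pair: Itpr2 held 45.3% against 47.9% for Itpr1 in cultured secondary follicle oocytes and 58.9% against 38.4% in cultured MII oocytes, while Itpr1 led in the animal with 66.9% and 61.0%. The ratio of Itpr2 to Itpr1 was 0.945 and 0.417 in cultured and animal secondary follicle oocytes and 1.53 and 0.618 in cultured and animal MII oocytes. Without replicates no error can be put on these ratios.

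**Figure D1:**
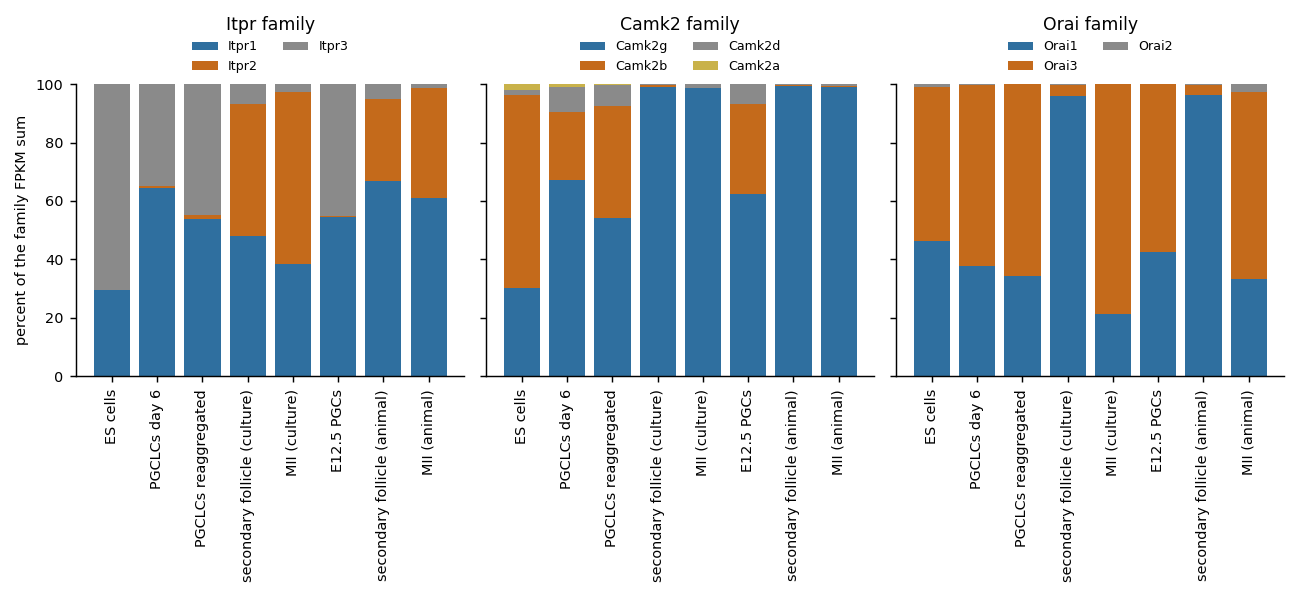
Percent of the summed FPKM of each gene family (vertical axis) held by its members in the 8 groups (horizontal axis), as stacked bars for the IP3 receptors, the CaMKII genes and the Orai channels; each bar is 1 pooled value. Itpr3 shrinks to 1.32% and Itpr2 widens to 37.7% in animal MII oocytes, Camk2g holds 98.7% or more in all 4 oocyte groups, and Orai1 leads only in the secondary follicle groups.

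Camk2g (chr14:20734875-20794088, - strand) encodes CaMKII gamma, the kinase that turns the calcium waves into release from meiotic arrest. Camk2g was at 6.09 FPKM in ES cells, 3.61 in PGCLCs of day 6, 9.27 in PGCLCs after reaggregation and 12.4 in E12.5 PGCs. Secondary follicle oocytes stood at 46.6 FPKM in culture and 45.2 in those of the animal, which is nearly the same value, whereas MII oocytes stood at 71.1 FPKM in culture and 14.6 in the animal. The growing oocytes of both routes thus started level and the eggs were far apart. The log2 difference from secondary follicle to MII was -1.57 in the animal, between -1.36 and -2.93 over the 7 alternatives. In culture the same step gave 0.60, which became -0.03 with quantile normalisation and -0.20 at equal sums, so no direction is given for it. At MII the culture stood 2.21 above the animal, with 1.73 to 2.77 over the alternatives.

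Camk2g was also close to the sole gene of its family in oocytes. It held 99.0% and 99.4% of the CaMKII sum in cultured and animal secondary follicle oocytes and 98.7% and 99.1% in the MII groups. In ES cells it held 30.1%, and Camk2b, a form best known from brain, held 66.1% at 13.4 FPKM. In E12.5 PGCs the shares were 62.4% for Camk2g and 30.8% for Camk2b. Camk2d reached at most 1.33 FPKM among the 8 groups and Camk2a at most 0.4 FPKM.

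Trpm7 (chr2:126791565-126876230, - strand) encodes a channel fused to a kinase that passes calcium and magnesium, and in mouse eggs it is known for calcium entry that keeps the waves going. Its FPKM was 20.8 in ES cells, 21.5 in PGCLCs of day 6, 19.7 in PGCLCs after reaggregation and 21.1 in E12.5 PGCs. The secondary follicle oocytes of culture held 16.1 FPKM and those of animals 16.5, and the MII oocytes 5.27 and 2.61 FPKM. Both eggs were below every other group, and the other 6 values lay between 16.1 and 21.5 FPKM. The step to MII gave -1.45 in culture, or just short of 2-fold with quantile normalisation, and -2.28 in the animal, which stayed past 2-fold in all 7 alternatives. With sums set equal the step was -2.15 in culture and -3.31 in the animal.

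Cacna1h (chr17:25374285-25433783, - strand) encodes CaV3.2, a low-voltage T-type calcium channel that helps to fill the stores of the oocyte. It was at 0.0818 FPKM in ES cells, 0.201 in PGCLCs of day 6, 0.993 in PGCLCs after reaggregation and 0.856 in E12.5 PGCs. In secondary follicle oocytes it stood at 22.6 FPKM after culture and 29.7 in the animal, and in MII oocytes at 13.8 and 6.38 FPKM. The peak was at the secondary follicle stage on both routes. Its growth step was 3.57 in culture and 4.05 in the animal. Its step to MII was -0.67 in culture, or -1.44 at equal sums, and -2.06 in the animal, or -3.30 at equal sums. Of the other T-type genes, Cacna1i was at 7.25 and 6.58 FPKM in cultured and animal secondary follicle oocytes and at 7.07 and 1.5 FPKM in the MII groups, and Cacna1g stayed at or under 0.292 FPKM in every group.

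Stim1 (chr7:102267806-102437319, + strand) encodes the sensor that reports an emptied endoplasmic reticulum to the plasma membrane, and Orai1 (chr5:123015074-123030456, + strand) encodes the pore that the sensor opens. Stim1 stood at 4.40 FPKM in ES cells, 2.45 in PGCLCs of day 6, 8.01 in PGCLCs after reaggregation and 7.72 in E12.5 PGCs, then at 6.95 and 8.20 in cultured and animal secondary follicle oocytes and 0.783 and 1.03 in cultured and animal MII oocytes. The eggs were the lowest groups. Orai1 stood at 9.11 FPKM in ES cells, 5.91 in PGCLCs of day 6, 9.82 in PGCLCs after reaggregation and 11.1 in E12.5 PGCs, then at 79.5 and 80.1 in cultured and animal secondary follicle oocytes and 3.18 and 1.96 in cultured and animal MII oocytes. Orai1 thus peaked in growing oocytes at almost the same value on both routes and was lowest in eggs.

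The pore was higher in growing oocytes than in germ cells before, and the sensor stayed within 2-fold. Over growth Orai1 differed by 2.90 in culture and 2.75 in the animal on the log2 scale, and Stim1 by -0.18 and 0.08. The ratio of Orai1 to Stim1 FPKM was 1.23 in PGCLCs after reaggregation, 1.43 in E12.5 PGCs, 11.4 and 9.77 in cultured and animal secondary follicle oocytes, and 4.06 and 1.90 in cultured and animal MII oocytes. In the step to MII, Orai1 differed by -4.27 in culture and -4.78 in the animal and Stim1 by -2.16 and -2.18, and each of these stayed past 2-fold in all 7 alternatives. With sums set equal, Orai1 differed by -4.95 and -5.75 and Stim1 by -2.64 and -2.94. Orai1 went from the top 5.65% and 5.54% of genes in cultured and animal secondary follicle oocytes to the top 52.4% and 53.8% in the eggs. Orai3, a related pore, held 78.5% and 64.0% of the Orai sum in cultured and animal eggs, at 11.6 and 3.77 FPKM, whereas Orai1 had held 95.9% and 96.3% at the secondary follicle stage. Stim2, the other sensor, was at 9.28 and 9.21 FPKM in cultured and animal secondary follicle oocytes and at 2.59 and 1.34 in the MII groups.

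Atp2a2 (chr5:122453513-122502225, - strand) encodes SERCA2, the pump that returns calcium to the endoplasmic reticulum, and was the most abundant of the 9 in every group. Its FPKM was 67.5 in ES cells, 43.7 in PGCLCs of day 6, 55.8 in PGCLCs after reaggregation and 60.4 in E12.5 PGCs. It was 95.0 and 106 in cultured and animal secondary follicle oocytes and 419 and 693 in cultured and animal MII oocytes. The eggs were the highest groups, in the top 1.5% and 1.62% of genes. The step to MII was 2.13 in culture and 2.69 in the animal, and it shrank to 1.31 and 1.22 at equal sums and to 1.09 and 0.84 with quantile normalisation, without a change of sign. At equal sums the 2 kinds of egg held nearly the same amount, with 296 and 310 FPKM.

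**Figure D2:**
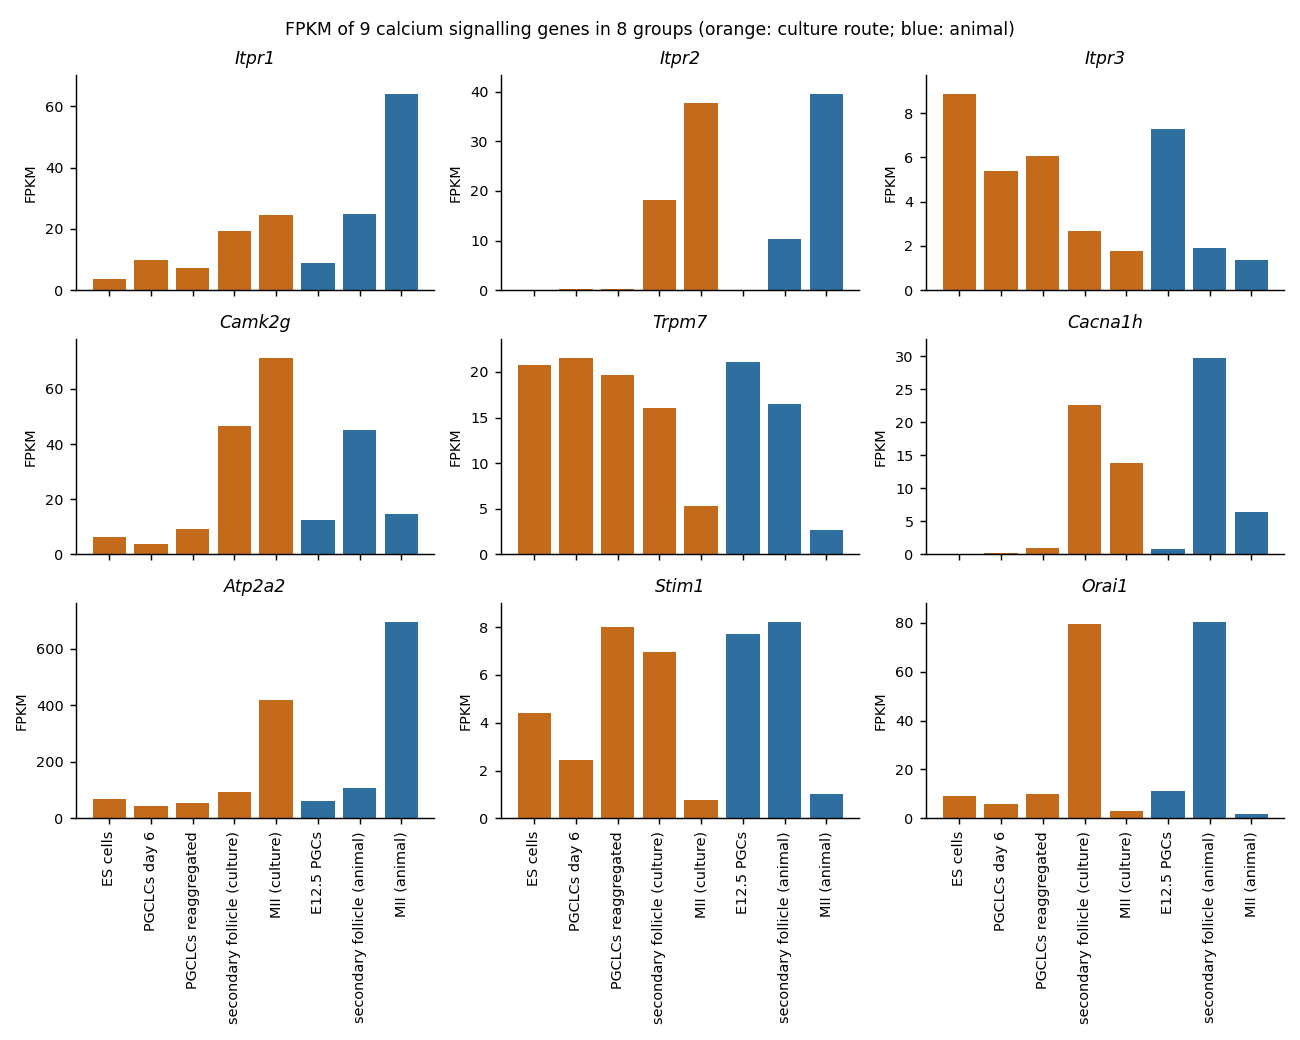
FPKM (vertical axes from 0, each panel with its own scale) of the 9 genes in the 8 groups, with culture groups in orange and animal groups in blue; each bar is 1 pooled value without error. Orai1 peaks near 80 FPKM in both secondary follicle groups, Atp2a2 reaches 419 and 693 FPKM in the eggs, and Camk2g is at 71.1 in cultured against 14.6 in animal MII oocytes.

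Stored messages of the oocyte are known to gain or lose poly(A) tail during maturation, and the libraries were made from poly(A) RNA; the part of tail length in these values was not tested. The end of each 3' UTR was read for the cytoplasmic polyadenylation element, spelled TTTTAT or TTTTAAT on the transcript strand, in the last 100 bases of 1 GENCODE M21 transcript per gene. Only Atp2a2 among the 9 held it, starting 90 bases from the end, at chr5:122456412-122456439 on the - strand of GRCm38. It is shown since Atp2a2 had the highest MII level, with the element in capitals.
Atp2a2: gtctaatgtaTTTTATtgtaacagacat
Of 12357 measured genes with a 3' UTR of that length, 19.6% held the element, so 1 of 9 is near that share. The polyadenylation signal AATAAA or ATTAAA was in that window for 8 of the 9, all but Itpr2, against 81.9% of genes. A match is only a run of letters in this window and the annotated transcript need not be the one used in oocytes.

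Promoters of 5 of the 9 genes were found in the RefSeq table for GRCm38.p6, as 250 bases before to 50 after the start of the gene; Itpr1, Camk2g, Cacna1h and Atp2a2 have none there. Those of Itpr2 and Orai1, which were higher in growing oocytes, and of Itpr3, which was lower, are shown, with E-boxes, CANNTG, the site of helix-loop-helix factors such as FIGLA, in capitals. They lie at chr6:146502174-146502473 on the - strand, chr5:123014824-123015123 on the + strand and chr17:27057054-27057353 on the + strand.
Itpr2: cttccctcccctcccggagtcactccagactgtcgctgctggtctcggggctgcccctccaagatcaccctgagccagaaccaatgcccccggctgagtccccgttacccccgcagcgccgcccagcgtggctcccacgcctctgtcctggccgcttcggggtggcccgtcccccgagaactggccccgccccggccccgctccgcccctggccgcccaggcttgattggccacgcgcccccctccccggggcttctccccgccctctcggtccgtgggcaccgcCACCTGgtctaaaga
Orai1: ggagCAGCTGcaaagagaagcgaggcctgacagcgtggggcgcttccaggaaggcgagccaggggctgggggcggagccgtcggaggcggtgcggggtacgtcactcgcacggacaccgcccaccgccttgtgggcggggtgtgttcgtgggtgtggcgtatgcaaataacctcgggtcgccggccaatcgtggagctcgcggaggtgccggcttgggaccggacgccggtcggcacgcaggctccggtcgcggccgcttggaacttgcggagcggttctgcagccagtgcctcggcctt
Itpr3: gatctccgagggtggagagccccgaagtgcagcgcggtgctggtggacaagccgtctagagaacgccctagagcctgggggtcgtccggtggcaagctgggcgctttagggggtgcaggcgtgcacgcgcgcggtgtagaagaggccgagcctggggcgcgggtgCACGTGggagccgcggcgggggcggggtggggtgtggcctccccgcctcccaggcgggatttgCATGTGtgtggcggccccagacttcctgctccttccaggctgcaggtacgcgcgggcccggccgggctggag
CANNTG reads the same on both strands, and it occurred 1 time each in Itpr2 and Orai1 and 2 times for Itpr3, while 72.3% of 32851 promoters of this length held at least 1. TAATTG or TAATTA, letters bound by homeobox factors such as NOBOX, was in none of the 5 on either strand and in 12.4% of promoters. The 5 were rich in G and C, with 63.7% to 78.7% against a median of 52.7%, and held 26 to 38 CG pairs against a median of 7.

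Before the oocyte stage 3 calls were made in 2 steps. From ES cells to PGCLCs of day 6, 1 of the 9 was called, where 21.6% of the 14242 genes were called either way: Itpr1 was higher by 1.21, beside 9.63% of genes called higher and 12.0% called lower. From day 6 to reaggregated PGCLCs, 2 were called against 10.2% of genes, both higher, beside 5.15% of genes called higher and 5.04% lower: Camk2g by 1.16 and Stim1 by 1.39. Of the 12 granulosa markers, Inha, Amhr2, Foxl2, Gja1 and Fst were also higher after reaggregation, where each reached 1 FPKM. Has2 and Cyp19a1 were lower, at 0.0135 against 0.445 FPKM and at 0 against 0.00887. The 8 stroma markers summed to 26.1 FPKM after reaggregation against 44.7 at day 6. The part of these markers in the 2 calls was not tested. The median of the 9 was -0.55 and 0.35 in these steps, beside 0.00021 and -0.02 for all genes. None of these 3 calls outlasted a pseudocount of 5, and at equal sums the split of all genes after reaggregation moved from 733 higher and 718 lower to 1326 and 532.

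Over oocyte growth in culture 5 of the 9 were called, where 51.6% of all genes were, and all 5 were higher, beside 25.2% of genes called higher and 26.4% lower: Itpr1, Itpr2, Camk2g, Cacna1h and Orai1. In the animal 6 were called, where 50.2% of all genes were: the same 5 higher, beside 24.3% of genes, and Itpr3 lower, beside 25.9%. The median of the 9 was 1.28 in culture and 1.39 in the animal, beside -0.09 for all genes in each. Itpr2 and Cacna1h passed the minimum of 1 FPKM through the oocyte groups alone, so their higher calls were bound to appear. The counts and medians lean on them, and the higher genes free of this were Itpr1, Camk2g and Orai1. Of the 10 higher calls, with those of Itpr2 and Cacna1h included, 9 held in all 7 alternatives. The call of Itpr1 in culture was lost at equal sums, with 0.96, and with a pseudocount of 5, with 0.98. The lower call of Itpr3 was lost with a pseudocount of 5, at -0.83. The split of all genes in culture moved from 3594 higher and 3755 lower to 3138 and 4982 at equal sums. The other 3 genes, Trpm7, Atp2a2 and Stim1, stayed within 2-fold on both routes.

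Between secondary follicle and MII the genes split. In the animal 8 of the 9 were called, where 61.1% of all genes were: Itpr1, Itpr2 and Atp2a2 higher, beside 28.0% of genes, and Camk2g, Trpm7, Cacna1h, Stim1 and Orai1 lower, beside 33.1%. In culture 5 were called, where 52.5% of all genes were: Itpr2 and Atp2a2 higher, beside 23.9% of genes, and Trpm7, Stim1 and Orai1 lower, beside 28.6%. Medians of the 9 were -1.57 and -0.43, beside -0.09 and -0.08 for all genes. At equal sums 1 gene was higher and 6 lower in the animal, and over all genes the split moved from 3988 higher and 4715 lower to 2170 and 6499 in the animal and from 3409 and 4070 to 2131 and 5619 in culture. The falls of Orai1 and Stim1 on both routes, and of Camk2g, Trpm7 and Cacna1h in the animal, held in all 7 alternatives, while of the rises only that of Atp2a2 in culture did.

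**Figure D3:**
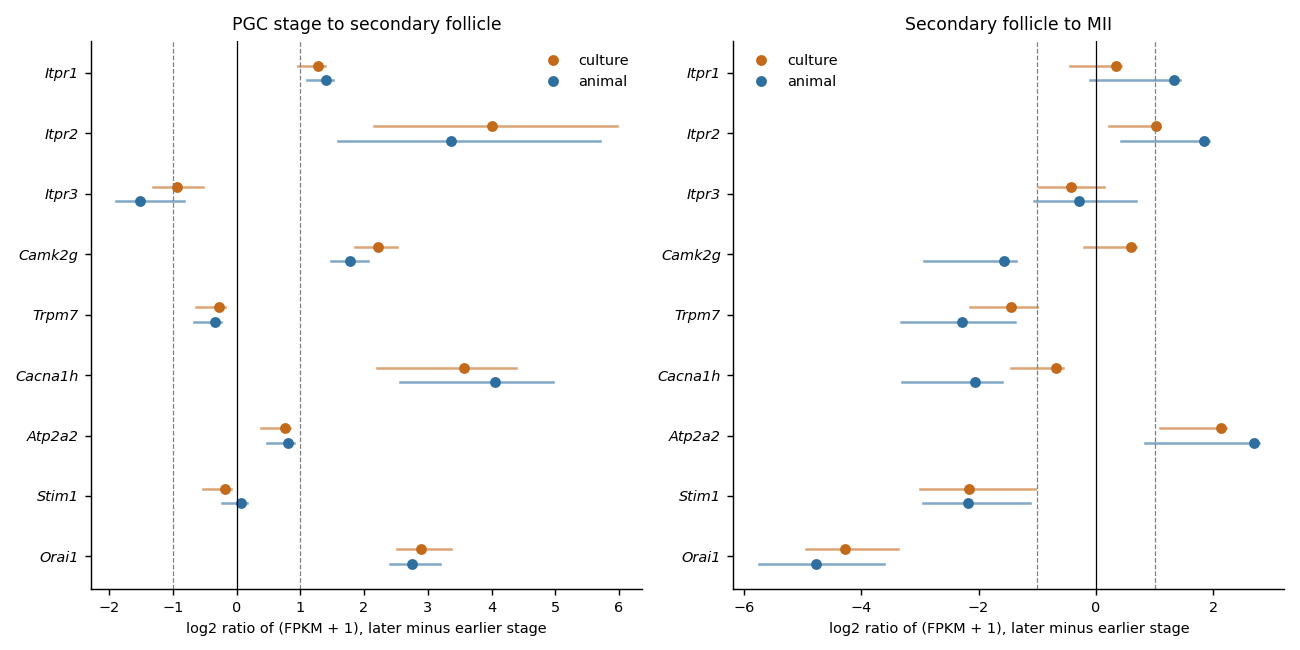
Log2 difference of (FPKM + 1), later minus earlier stage (horizontal axes), for the 9 genes over oocyte growth (left) and from secondary follicle to MII (right), in culture (orange) and in the animal (blue); dots are the reported values, lines span the 7 alternatives, and dashed lines mark 2-fold. The lines for Itpr1 at right cross 0, and those for Orai1 end at or below -3.37.

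At the earlier stages none of the 9 was 2-fold apart between culture and animal. Between reaggregated PGCLCs and E12.5 PGCs 0 of the 9 were called, where 2.18% of all genes were (1.39% higher and 0.786% lower), and the widest difference was -0.38 for Camk2g. Between cultured and animal secondary follicle oocytes 0 of 9 were called, where 2.4% of all genes were (1.74% higher and 0.66% lower), and the widest difference was 0.76 for Itpr2, followed by -0.38 for Cacna1h and by 0.35 for Itpr3 and -0.35 for Itpr1. Camk2g and Orai1 differed there by 0.04 and -0.01. With 1 value per group there is no count of calls at an unadjusted p to set beside these counts of 0.

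At MII 3 of the 9 were called between culture and animal, where 21.9% of all genes were. Camk2g was higher in culture by 2.21 and Cacna1h by 1.00, where 12.4% of genes were higher, and Itpr1 was lower, at -1.35, where 9.45% of genes were lower. The median of the 9 was 0.21, beside 0.01 for all genes. Camk2g alone was called in all 7 alternatives; Itpr1 was at -0.69 at equal sums and -0.74 with quantile normalisation, and Cacna1h, on the threshold, was at 0.58 with quantile normalisation and 1.48 at equal sums. Trpm7, at 0.80, was called higher at equal sums, with 1.13. Over all genes the split was 1772 higher and 1346 lower, and 2385 and 168 at equal sums. Atp2a2 was at -0.73, Orai1 at 0.50, Itpr3 at 0.21, Stim1 at -0.19 and Itpr2 at -0.07, all within 2-fold. The granulosa markers other than Cyp19a1 summed higher in cultured eggs, as given above, though Ptx3 was lower, at 0.787 against 1.82 FPKM. Amh was lower too, at 0.0509 against 0.297 FPKM, and the part of the granulosa markers in these differences was not tested. This comparison shares the animal egg, with its lower Camk2g, with the animal step to MII. It shares the cultured egg with the culture step.

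**Figure D4:**
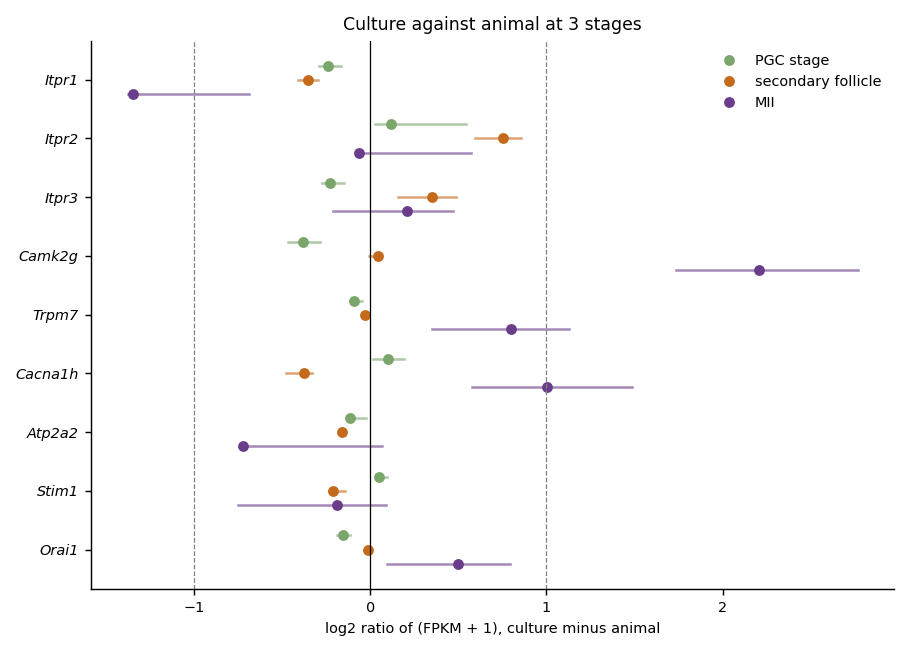
Log2 difference of (FPKM + 1), culture minus animal (horizontal axis), for the 9 genes at the PGC stage (green), in secondary follicle oocytes (orange) and at MII (purple); dots are the reported values, lines span the 7 alternatives, and dashed lines mark 2-fold. At the first 2 stages every dot lies within 2-fold, and at MII Camk2g stands at 2.21 with its line from 1.73 to 2.77.

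The surrounding pathway was read from 7 lists of 119 further genes, of which 118 were in the table and 95 reached 1 FPKM in 1 or more groups. Of those 95, 1 was called between cultured and animal secondary follicle oocytes, beside 2.4% of all genes. In cultured against animal MII oocytes 15 were higher and 6 lower, beside 12.4% and 9.45% of all genes. At equal sums 17 were higher and 0 lower, beside 2385 and 168 of the 14242 genes. From secondary follicle to MII 25 were higher and 31 lower in the animal, beside 28.0% and 33.1% of all genes, and 21 and 28 in culture, beside 23.9% and 28.6%. At equal sums the counts were 12 and 42 in the animal, beside 2170 and 6499 of the 14242 genes, and 13 and 35 in culture, beside 2131 and 5619. These shares are near those of all genes. Medians of the 95 were -0.23 and -0.17 in these steps, beside -0.09 and -0.08 for all genes, and 0.09 between cultured and animal MII oocytes, beside 0.01. The gene called at the secondary follicle stage was Cacnb3, a channel beta subunit, at 29.1 FPKM in culture and 14.0 in the animal, just past 2-fold and within it after median centring or with a pseudocount of 5. At MII it was at 23.8 and 1.60 FPKM.

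On the side that makes IP3, Plcz1, the sperm factor, was listed at 0 in all 8 groups. Of 16 measured phospholipase and IP3 genes, 3 were higher and 7 lower at MII than in the secondary follicle in the animal, beside 28.0% and 33.1% of all genes, and 2 and 7 in culture, beside 23.9% and 28.6%. Medians were -0.59 and -0.62, beside -0.09 and -0.08 for all genes. The counts at equal sums were 1 and 9, and 1 and 10, beside 2170 and 6499, and 2131 and 5619, of the 14242 genes. Plcb3, a phospholipase driven by G proteins, went from 3.18 to 27.4 FPKM in the animal and from 3.27 to 15.9 in culture. Pi4ka, the kinase that starts the supply of the IP3 precursor lipid, went from 27.9 to 0.793 FPKM in the animal and from 24.2 to 2.84 in culture, and Plcg1, a phospholipase driven by tyrosine kinases, from 10.0 to 0.591 and from 10.1 to 1.89. All 3 held in all 7 alternatives on both routes.

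Among 10 release channels and their regulators, 2 were higher and 2 lower at MII in the animal, beside 28.0% and 33.1% of all genes. The counts in culture were 2 and 3, beside 23.9% and 28.6%. Medians were -0.23 and -0.48, beside -0.09 and -0.08 for all genes. The counts at equal sums were 1 and 4, and 2 and 3, beside 2170 and 6499, and 2131 and 5619, of the 14242 genes. Mrvi1, which ties the IP3 receptor to cyclic GMP signalling, went from 9.84 to 0.571 FPKM in the animal and from 6.11 to 0.481 in culture. Erp44, a luminal protein known to hold back IP3R1, went from 15.9 to 79.4 FPKM and from 17.2 to 90.2, though the animal step fell short of 2-fold at equal sums. Ahcyl1, which competes with IP3 for the receptor, was at 7.58 FPKM in cultured and 18.4 in animal MII oocytes, a difference of -1.18 that was -0.54 to -1.27 over the alternatives.

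Of 13 further entry channels and sensors, 2 were higher and 5 lower at MII in the animal, beside 28.0% and 33.1% of all genes, and 3 and 5 in culture, beside 23.9% and 28.6%. Medians were -0.50 and -0.06, beside -0.09 and -0.08 for all genes. The counts at equal sums were 2 and 6, and 1 and 6, beside 2170 and 6499, and 2131 and 5619, of the 14242 genes. Trpv3, another channel known to pass calcium in mouse eggs, was at 6.11 and 5.50 FPKM in cultured and animal secondary follicle oocytes and at 0.883 and 0.494 in MII oocytes. Trpc1 went from 0.358 to 10.7 FPKM in the animal and from 0.887 to 12.4 in culture, with differences of 2.00 and 2.21 at equal sums. Tmem66, the older symbol of Saraf, a brake on store-operated entry, went from 84.2 to 775 FPKM and from 103 to 360, the culture step being within 2-fold at equal sums and with quantile normalisation. Stim2 was lower at MII on both routes, with -2.13 in the animal and -1.52 in culture. Orai3 was higher at MII in culture, with 1.57, or 0.87 at equal sums, and within 2-fold in the animal, with 0.31, or -0.76 at equal sums. Between the eggs Orai3 was higher in culture by 1.41, a call lost with quantile normalisation and with a pseudocount of 5.

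Of 11 pumps, exchangers and mitochondrial genes, 4 were higher and 4 lower at MII on each route, beside 28.0% and 33.1% of all genes in the animal and 23.9% and 28.6% in culture. At equal sums the counts were 3 and 4 on each route, beside 2170 and 6499 of the 14242 genes in the animal and 2131 and 5619 in culture. Atp2b1 and Mcu were among the higher and Micu2 and Letm1 among the lower on both. The list's medians were -0.11 in the animal and -0.21 in culture, beside -0.09 and -0.08 for all genes. Mcu, the pore of the mitochondrial uniporter, went from 8.70 to 441 FPKM in the animal and from 8.09 to 227 in culture, with log2 differences of 5.51 and 4.65, or 4.06 and 3.86 at equal sums. Micu2, a gate of that pore, went from 78.7 to 2.28 FPKM in the animal and from 55.7 to 18.4 in culture, and was 2.57 higher in cultured than in animal MII oocytes, or 2.80 at equal sums. Atp2b1, a pump of the plasma membrane, was at 47.4 FPKM in cultured and 112 in animal MII oocytes, against 8.14 and 10.8 at the secondary follicle stage. Its difference between the eggs, -1.22, was -0.56 at equal sums, and that call was lost there and with quantile normalisation.

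Of 9 genes listed under buffers and calmodulins, 4 were higher and 0 lower in cultured than in animal MII oocytes, beside 12.4% and 9.45% of all genes. The counts at equal sums were also 4 and 0, beside 2385 higher and 168 lower of the 14242 genes. The 4 were Calr, Calm2, Calm3 and S100a10, and the median was 0.26, beside 0.01 for all genes. S100a10 is counted by its place in the list, and whether its product buffers calcium was not checked. Calr, the main calcium buffer inside the endoplasmic reticulum, was at 367 and 375 FPKM in cultured and animal secondary follicle oocytes and at 131 and 13.5 FPKM in MII oocytes, a difference at MII of 3.18 that held in all 7 alternatives. Calm2 was at 49.5 and 9.51 FPKM in cultured and animal eggs and Calm3 at 5.64 and 0.954. Calm2 and Calm3 encode the same protein, calmodulin, and their messages can share reads. Camk2g, Calr and Calm2 were thus within 2-fold between the growing oocytes of both routes and over 2-fold higher in the cultured egg.

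Of 23 decoders and targets, 8 were higher and 4 lower at MII in the animal, beside 28.0% and 33.1% of all genes, and 5 and 3 in culture, beside 23.9% and 28.6%. Medians were 0.05 and 0.02, beside -0.09 and -0.08 for all genes. The counts at equal sums were 3 and 8, and 3 and 3, beside 2170 and 6499, and 2131 and 5619, of the 14242 genes. Fbxo43, which encodes EMI2, the protein that CaMKII marks for destruction, went from 10.9 to 451 FPKM in the animal and from 13.7 to 234 in culture, with differences of 3.79 and 3.20 at equal sums. Wee2, the oocyte WEE1B kinase that acts downstream of CaMKII, went from 111 to 1255 FPKM and from 105 to 738, with 2.01 and 1.99 at equal sums. Cdc20, an activator of the anaphase-promoting complex, was at 223 FPKM in cultured and 506 in animal MII oocytes, a difference of -1.18 that was within 2-fold at equal sums and with quantile normalisation.

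The 9 genes did not share 1 pattern. Over the 8 groups the correlation of log2(FPKM + 1) was 0.93 for Camk2g with Cacna1h and 0.90 for Itpr1 with Itpr2. It was -0.98 for Trpm7 with Atp2a2 and -0.96 for Itpr2 with Itpr3. These values describe 8 pooled points, 5 of the culture route and strain and 3 of the animal's. The like genes below are the best 3 of 9019 genes with at least 10 FPKM in a group, over 8 points. Their correlations were therefore bound to be high, and their size is not read as a result. Those most like Itpr2 were Cd160, Esr2 and Cd36, and those most like Cacna1h were Lhx8, Slc24a3 and Fgf8, with correlations of 0.99 or more. Itpr2 and Cacna1h were under 1 FPKM in every group before the oocyte stage, so genes largely confined to oocytes match them. Lhx8, a transcription factor of the early oocyte, was at 134 and 115 FPKM in cultured and animal secondary follicle oocytes. Orai1 was closest to Pcca, Ogfod3 and Abcf3, Atp2a2 to Trip12, Uxs1 and Mapkbp1, and Trpm7 to Edf1, Dus1l and Atp5o, all at 0.99 or more. Camk2g was closest to Tmem164, at 0.98, which was at 49.3 FPKM in cultured and 14.7 in animal MII oocytes. Itpr1 was closest to Ccdc84, Znfx1 and Kifc3, at 0.98 to 0.99, and Itpr3 to Ptpmt1, Klf3 and Kdm5b, at 0.99. For Stim1 the highest value was that of Pip4k2a, at 0.96.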

How the data were processed

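Poly(A) RNA of 23 samples was sequenced with directional libraries. Per the submitters' processing notes, TopHat2, Bowtie2 2.0.13, Cufflinks and Cuffdiff 2.2.1 were used with mouse genome mm10. The deposited table holds FPKM, a single value for each gene symbol in each group; the sources used here do not say how samples were merged. A limma fit planned for values per sample was therefore not run.

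From the FPKM, log2(FPKM + 1) was computed with Python 3.11.15 and pandas 2.3.3 and differences were called at 1 or more in size, in 9 comparisons. The 9 genes and all lists were chosen with earlier results of these data known. From each list, up to 3 called genes with at least 5 FPKM and the largest difference were eligible by name for the comparisons with MII and with the animal. Plcz1, Trpv3, Wee2, Fbxo43, Astl, Orai3, Stim2 and Camk2d were set to be named in any case, also with those earlier results known. Others named, with Camk2a, Camk2b and Cacna1g among them, were chosen after their values were seen. The like genes are the 3 with the highest Pearson correlation. The code was tested on simulated data. Alternatives were pseudocounts of 0.1 and 5, a minimum of 5 FPKM, no minimum, quantile normalisation, median centring and equal column sums. Mcub was not analysed here, and some genes of the lists are not reported here by name. Gene positions are those of GENCODE M21, GRCm38, the build named mm10 in those notes.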

Additional observations from a re-analysis of the deposited data

How the results depend on the processing

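Of 81 differences of the 9 genes, 30 were called, 18 of these held in all 7 alternatives, 12 were lost in at least 1, and 6 others were gained in at least 1. Those that held include the growth calls of Itpr2 and Cacna1h, which were bound to be large. Only 1 called difference changed sign: Itpr1 from secondary follicle to MII in the animal, 1.33, was -0.11 at equal sums. Of 63 counts of called genes under an alternative, 58 were within 1.5 times of the reported one. With quantile normalisation, 1 gene and not 3 was called between cultured and animal MII oocytes, beside 14.6% and not 21.9% of all genes. From secondary follicle to MII in culture 3 and not 5 were called, beside 50.5% and not 52.5% of all genes. From ES cells to PGCLCs of day 6 the count of 1 became 2 with a pseudocount of 0.1 and 0 with a pseudocount of 5. The share of all genes there went from 21.6% to 32.7% and 9.48%. From day 6 to reaggregated PGCLCs the count of 2 became 0 with a pseudocount of 5, and the share of all genes went from 10.2% to 2.70%. The cause was not tested. Of all genes, 5554 were called between cultured and animal MII oocytes with a pseudocount of 0.1 and 1486 with a pseudocount of 5, against 3118. No paired analysis was possible because the table holds 1 value per group and no column carries a replicate number; leaving out replicates could not be run for the same reason. Read depth is unknown, so no floor can be set on the low values of Itpr2 and Cacna1h before the oocyte stage.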

Other observations

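Genes of cortical granule exocytosis, the calcium-driven release that hardens the egg coat after fertilisation, are 1 of the 7 lists counted together above, with 15 genes, of which 13 reached 1 FPKM. Of the 13, 0 were called between cultured and animal secondary follicle oocytes, beside 2.4% of all genes. In cultured against animal MII oocytes 5 were higher and 1 lower, beside 12.4% and 9.45% of all genes, with a median of 0.51 beside 0.01. At equal sums 5 were higher and 0 lower, beside 2385 and 168 of the 14242 genes. The lower gene was Syt1, a calcium sensor of vesicle fusion, at 4.89 FPKM in cultured and 13.7 in animal eggs, with -1.32, or -0.68 at equal sums. Astl, which encodes the granule protease ovastacin, was at 983 and 900 FPKM in cultured and animal secondary follicle oocytes and at 536 and 428 in MII oocytes, and at or under 0.169 FPKM in the 4 earlier groups. Nsf, the ATPase that recycles membrane fusion complexes, was at 277 and 229.8 FPKM in the follicle groups and at 34.0 and 7.76 in cultured and animal eggs. Napa, its adaptor, was at 7.31 FPKM in cultured and 0.601 in animal eggs, and Rab3a, a small GTPase of secretory granules, at 29.3 and 9.44. The differences of Nsf, Napa and Rab3a at MII, 2.00, 2.38 and 1.54, stayed past 2-fold in all 7 alternatives.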
